A study of Mus musculus with 18 samples.

Results

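The comparison set 3 Mettl3 knockout libraries of mouse embryoid bodies against 3 control libraries of the same cell line, a choice made by the labels alone that takes 6 of the 18 libraries in the series. Embryonic stem cells left to differentiate in suspension clump into such bodies. Both groups came from C57BL/6 stem cells labelled as a Mettl3 conditional knockout (CKO) line, kept in medium with 15% serum, LIF and the kinase inhibitors CHIR99021 and PD0325901. They were then left for 7 days in medium without these 3 additions, free of feeder cells, and the treatment protocol names DMSO for Mettl3 CKO cells that did not get the inhibitor GSK-J4. The sources used here do not give how the allele was deleted, which exons were removed, or whether each group was 1 clone. They also do not say how the control was made or whether it had DMSO too. A second CKO line, of Mettl14, gave 3 knockout and 3 control libraries of the same strain and day, used below only to ask whether genes moved differently in the 2 lines.

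METTL3 is the catalytic subunit of the enzyme complex that writes N6-methyladenosine (m6A) onto messenger RNA, with METTL14 as the partner that holds the RNA substrate. The mark lies mostly near stop codons and in long exons, often in the sequence GGACT, and reader proteins that bind it can speed the decay of the transcript or alter its splicing and translation. In mouse embryonic stem cells, loss of Mettl3 is known to prolong the life of pluripotency transcripts and to hinder the exit from the stem cell state.

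Values are CPM, counts scaled to library size with TMM size factors, and a gene was called at a Benjamini-Hochberg adjusted p under 0.05 in edgeR's quasi-likelihood test across the genes that passed a filter on low counts. Genes with a p under 0.05 before adjustment are described as nominally higher or lower, which is not a call. The libraries held 17544904 to 32540164 counts in the knockout and 21615674 to 29496824 in the controls. The labels do not say whether replicates were grown apart, and the p-values therefore reflect the spread of these 3 against 3 samples alone, possibly a technical one. Knockout library 2 stood apart on the first principal component, which held 39.3% of the variance, and had the lowest total and the fewest genes with a count. Control library 2 stood apart on the second, with 24.7%. Markers of the labelled tissue were mixed. The stem cell genes Pou5f1 and Nanog were low (Pou5f1 at most 9.76 CPM, in knockout library 2, and Nanog at most 0.555 CPM), and summed endoderm markers came to 7.16 to 35 CPM in the knockout libraries, against 10.1 to 13.5 CPM in the controls. Genes of matrix-producing cells were abundant, with summed fibroblast markers at 16000.4 to 17281 CPM in the knockout libraries, against 11533 to 15844 CPM in the controls. Xist, which silences the second X chromosome, and the Y-linked gene Ddx3y were each detected in every library, at 161 to 244 CPM and 84.5 to 118 CPM in the knockout and 177 to 215 CPM and 66.1 to 92.8 CPM in the controls.

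Mettl3 mRNA itself did not separate the groups. It had 26, 6.91 and 17.8 CPM in knockout libraries 1 to 3, against 20.1, 34.1 and 18.8 CPM in control libraries 1 to 3. Knockout library 1 exceeded 2 of the 3 controls, knockout library 2 was the lowest of all, and the groups overlapped. Mettl3 (chr14:52294841-52305128 of mm10, minus strand) averaged 16.9 ± 9.57 CPM in the knockout and 24.3 ± 8.46 CPM in the controls (SD, n = 3 each; exact two-sided permutation p = 0.4, where the smallest possible with 3 against 3 is 0.1). The log2 fold change was -0.52 ± 0.395 (SE), with an adjusted p of 0.83. Reads were counted over the whole gene, and a deletion of some exons can leave a transcript that is still counted, so this value checks the labels only weakly.

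The other genes of the m6A machinery were likewise not called in edgeR. None of the 8 writer genes tested was nominally higher or lower, and their median log2 fold change was -0.03, beside -0.0083 over all 15838 genes tested. Mettl14, the partner of METTL3, had 19.3, 11.4 and 18.5 CPM in the knockout, against 21.6, 21.4 and 24.4 CPM in the controls, lower in every knockout library than in any control, with a log2 fold change of -0.45 ± 0.292 and an adjusted p of 0.78. Virma, the large scaffold subunit, had 111, 127 and 135 CPM in the knockout, against 85.4, 94.3 and 112 CPM in the controls, and these groups overlapped. Wtap, which keeps the complex in nuclear speckles, had a log2 fold change of 0.11 ± 0.197, Zc3h13 -0.19 ± 0.177, Cbll1 0.45 ± 0.345, Rbm15 -0.02 ± 0.344 and Rbm15b -0.04 ± 0.211. The signs for Wtap, Rbm15 and Rbm15b turned when knockout library 2 was left out. With each library's trend with transcript length removed, as described below for all genes, Mettl14 and Zc3h13 were nominally lower (log2 -0.66 and -0.38). Among 14 readers and erasers, 1 was nominally higher and 1 nominally lower, against 3.9% and 3.61% of all genes tested. The higher one was Fto, an RNA demethylase, with 107, 142 and 109.5 CPM in the knockout, against 88.9, 91.2 and 87.5 CPM in the controls. Fto was no longer nominally higher with the length trend removed (log2 0.32) or without knockout library 2 (0.29). The same held without control library 1 or control library 3. The lower one was Hnrnpc, an RNA-binding protein whose access to transcripts m6A can open, with 228, 222 and 243 CPM in the knockout, against 308, 328 and 324 CPM in the controls. Neither passed adjustment in edgeR, with adjusted p of 0.606 and 0.555, while DESeq2 called Hnrnpc (log2 fold change -0.48, adjusted p 0.0398). Hnrnpa2b1 of the same list also lay below all controls, with 404, 369 and 453 CPM in the knockout, against 488, 509 and 495 CPM. It was not nominally lower, and its log2 fold change of -0.28 ± 0.146 was -0.10 with the length trend removed. The readers Ythdf1, Ythdf2 and Fmr1 had log2 fold changes of 0.15, -0.28 and 0.15, each with overlapping groups.

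Across all genes, 2 of 15838 were called (0.0126%), and both fell in the knockout. Before adjustment, 1189 genes had a p under 0.05 (7.51%), 618 of them higher and 571 lower. On the same libraries DESeq2 called 54 genes (0.341%). The first call was Prl2c2, a proliferin, one of the prolactin-family growth factors that mouse placenta and growing fibroblasts secrete. Prl2c2 (chr13:12996125-13005383, minus strand) had 168, 100.1 and 109 CPM in knockout libraries 1 to 3, against 363, 407 and 383 CPM in control libraries 1 to 3. The lowest control was more than 2 times the highest knockout library. It fell to 126 ± 36.6 CPM in the knockout, against 385 ± 22.4 CPM in the controls (SD, n = 3 each), a log2 fold change of -1.61 ± 0.191 with an adjusted p of 0.00394 in edgeR. Its near-identical paralog Prl2c3 on the same chromosome had 23.2, 9.93 and 12.7 CPM in the knockout, against 42, 66.7 and 48.8 CPM in the controls, a log2 fold change of -1.77 ± 0.306 and an adjusted p of 0.0811. The sources used here do not say how reads shared by such paralogs were counted, so the level of each of the pair is uncertain.

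The second call was Gsta4, a glutathione transferase that conjugates 4-hydroxynonenal, a toxic product of lipid peroxidation. Gsta4 (chr9:78182774-78209349, strand +) had 151, 107 and 104 CPM in knockout libraries 1 to 3, against 257, 338 and 343 CPM in control libraries 1 to 3. All 3 knockout libraries were below all 3 controls, with no overlap. The means were 121 ± 26.6 CPM in the knockout and 312 ± 48.5 CPM in the controls (SD, n = 3 each), a log2 fold change of -1.37 ± 0.187 with an adjusted p of 0.012 in edgeR. Both calls depended on single libraries. Without knockout library 2 no gene was called in edgeR, and the log2 fold changes were -1.47 for Prl2c2 and -1.28 for Gsta4, with adjusted p of 0.159 and 0.439. Without knockout library 3 only Prl2c2 was called, and without control library 3 the calls numbered 15.

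**Figure D1:**
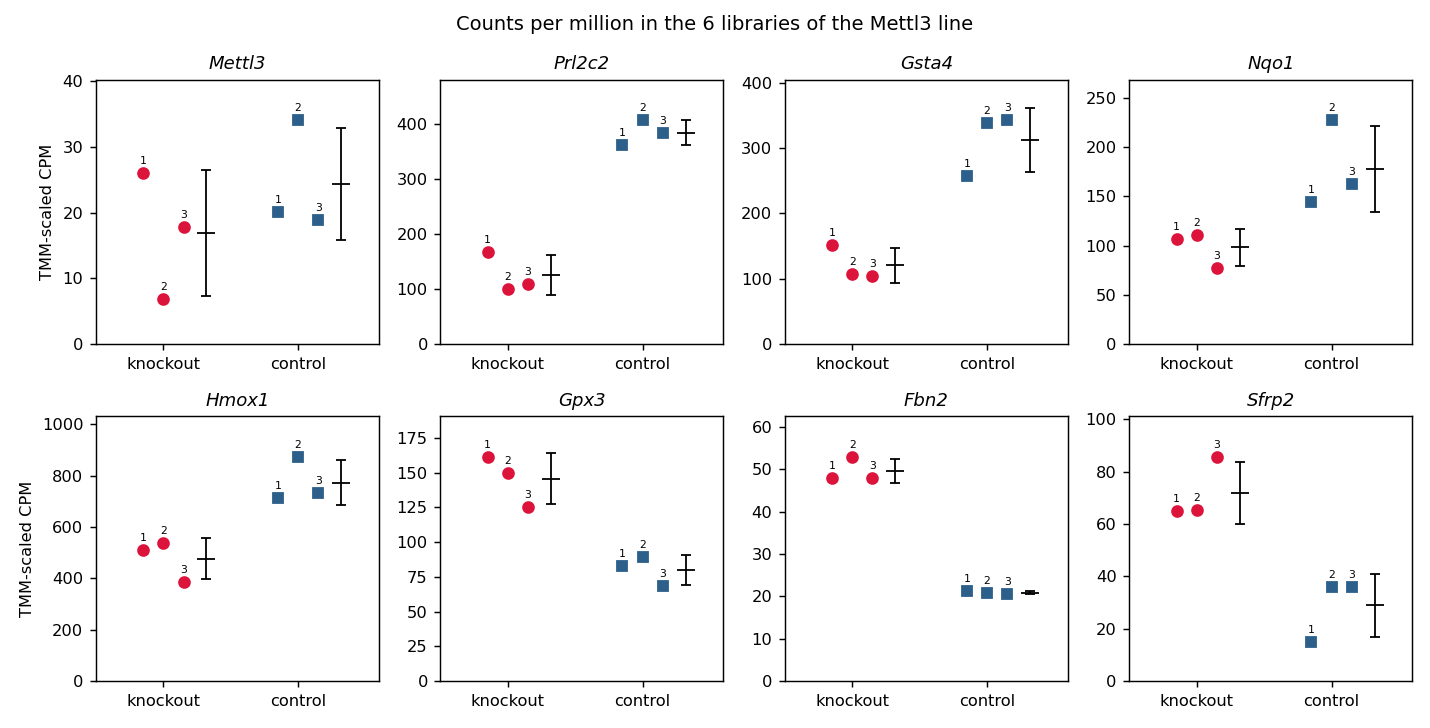
TMM-scaled CPM of 8 genes in the 6 libraries of the Mettl3 line, with the knockout as circles, the controls as squares, numbers marking replicates and black bars the mean ± SD (n = 3 each). Mettl3 overlaps between groups, while Prl2c2, Gsta4, Nqo1 and Hmox1 lie lower and Gpx3, Fbn2 and Sfrp2 lie higher in all 3 knockout libraries than in any control; of these only Prl2c2 and Gsta4 were called.

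A group of 14 targets and members of the NRF2 antioxidant pathway held Gsta4 and 7 more nominally lower genes, 8 of 14, with none higher, where 3.61% of all genes tested were nominally lower. Like the lists below, this one was chosen with earlier results of these data known, and it holds the called Gsta4. The counts are therefore a description and no test. NRF2, encoded by Nfe2l2, is the transcription factor that answers oxidative stress by binding the antioxidant response element beside genes for glutathione synthesis, thioredoxin recycling and detoxification. The same 8 genes were the ones whose knockout libraries all lay below the controls, against 6.91% of all genes tested. The median log2 fold change of the 14 was -0.54, and summed they had 2059.5 to 2531 CPM in the knockout libraries, against 3074 to 3690.2 CPM in the controls. DESeq2 called 7 of the 14, all lower.

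Several of these genes make or use glutathione. Slc7a11, the cystine importer that feeds glutathione synthesis, had 15.3, 4.68 and 20.1 CPM in knockout libraries 1 to 3, against 35.8, 38.7 and 38.4 CPM in control libraries 1 to 3. Its controls lay close together and knockout library 2 was the lowest, for a log2 fold change of -1.49 ± 0.38 and an adjusted p of 0.429. Gclc, the catalytic subunit of the rate-limiting enzyme of that synthesis, had 93.7, 67.9 and 106 CPM in the knockout, against 127, 150.4 and 159 CPM in the controls, and its modifier subunit Gclm had 67, 53.8 and 69.9 CPM in the knockout, against 86.9, 97.2 and 81.1 CPM in the controls. Both were lower in each knockout library than in any control, by log2 -0.71 ± 0.188 and -0.48 ± 0.182. The thioredoxin branch showed the same order in 2 of its genes. Prdx1, a peroxiredoxin, had 446, 439.7 and 351 CPM in the knockout, against 554, 719 and 614 CPM in the controls, and Srxn1, the sulfiredoxin that repairs peroxiredoxins, had 111, 94.9 and 85.8 CPM in the knockout, against 139, 173 and 148 CPM in the controls. Txnrd1, thioredoxin reductase, had 359.9, 432 and 352 CPM in the knockout, against 388, 387 and 375 CPM in the controls, and these groups overlapped.

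Of the detoxifying genes, Hmox1, the heme oxygenase that degrades heme, had 509, 536 and 386 CPM in knockout libraries 1 to 3, against 714, 874 and 731 CPM in control libraries 1 to 3. Its log2 fold change was -0.70 ± 0.162 with an adjusted p of 0.329. Nqo1, a quinone reductase, had 106, 111 and 76.9 CPM in the knockout, against 144, 227 and 162 CPM in the controls, a log2 fold change of -0.86 ± 0.201 and an adjusted p of 0.329. In both genes control library 2 was the highest and knockout library 3 the lowest. The remaining 6 listed genes overlapped between groups. Nfe2l2 itself had 148, 167 and 141 CPM in the knockout, against 131, 122 and 151 CPM in the controls, and Gsr, Gstm1, Mt1 and Mt2 had log2 fold changes of -0.28, -0.19, -0.08 and 0.0048. The metallothioneins Mt1 and Mt2 bind zinc and copper.

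The element that NRF2 binds has the core TGACNNNGC, and the RefSeq promoter windows (GRCm38.p6, 250 bases before to 50 after a gene's start) were searched for it on both strands. Among the 14 genes, 10 had a window, 13 windows in all, and 6 of the 13 windows held the core, each in a different gene, where 12.4% of all 32851 windows of 300 bases did. Gsta4, Hmox1, Gclc and Gsr had no window and were not searched. The list was made of NRF2 targets and members, so its share beside that of all windows is a description. The 5 cores that lie before the start are shown with their surroundings, 60 bases each, 5′ to 3′ in the gene's own direction with the core in capitals, since they stand beside genes that were lower (Prdx1, Gclm) and genes that were not (Nfe2l2, Txnrd1, Mt2).
Prdx1: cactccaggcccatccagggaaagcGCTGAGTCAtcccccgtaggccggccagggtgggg
Gclm: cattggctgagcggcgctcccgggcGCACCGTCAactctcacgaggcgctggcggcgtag
Nfe2l2: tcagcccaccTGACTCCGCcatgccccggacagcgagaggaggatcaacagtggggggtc
Txnrd1: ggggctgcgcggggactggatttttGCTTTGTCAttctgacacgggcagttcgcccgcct
Mt2: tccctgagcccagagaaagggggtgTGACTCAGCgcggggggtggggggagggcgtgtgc
These are chr4:116685441-116685500 (plus strand), chr3:122245398-122245457 (plus strand), chr2:75704854-75704913 (minus strand), chr10:82859089-82859148 (plus strand, 1 of 3 start sites of the gene) and chr8:94172514-94172573 (plus strand). In Prdx1 and Gclm the core lies on the opposite strand and starts 133 and 134 bases before the start. In Mt2 it starts 79 bases before it on the same strand. The sixth gene, Srxn1, had its core within the first 50 transcribed bases. The windows of Nqo1 and Slc7a11, both lower in every knockout library, did not hold these letters.

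Fold changes in the comparison went with transcript length. Over 8983 protein-coding genes at 10 CPM or more, the Spearman correlation of the log2 fold change with the length of the longest transcript was 0.512, a description across genes that share the same 6 libraries. Sorted into 5 bins of equal size, the shortest genes (median 1401 bases) had a median log2 fold change of -0.26 and the longest (median 7122 bases) 0.21. The trend came mainly from 2 libraries. In the shortest bin the median deviation from the 6-library mean was 0.05, -0.08 and -0.34 in knockout libraries 1 to 3, against 0.06, 0.32 and 0.05 in the controls. Knockout library 3 and control library 2 lay at opposite ends, and knockout library 1 ran with control libraries 1 and 3. Without these 2 end libraries the median of the shortest bin was -0.06 and that of the longest 0.04. The density of the m6A sequence GGACT per kilobase of transcript had a Spearman correlation of -0.0209 with the fold change over the same genes. Nominally higher genes had a median transcript of 5956 bases and nominally lower ones 1616, against 3378 over all. List medians below are therefore also given after each library's trend with length was removed. Counts of nominally higher and lower members below stand against 3.9% and 3.61% of all genes tested, and those without overlap against 6.78% above and 6.91% below. With the 2 end libraries left out, 2.12% of genes were nominally higher and 1.59% lower.

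**Figure D2:**
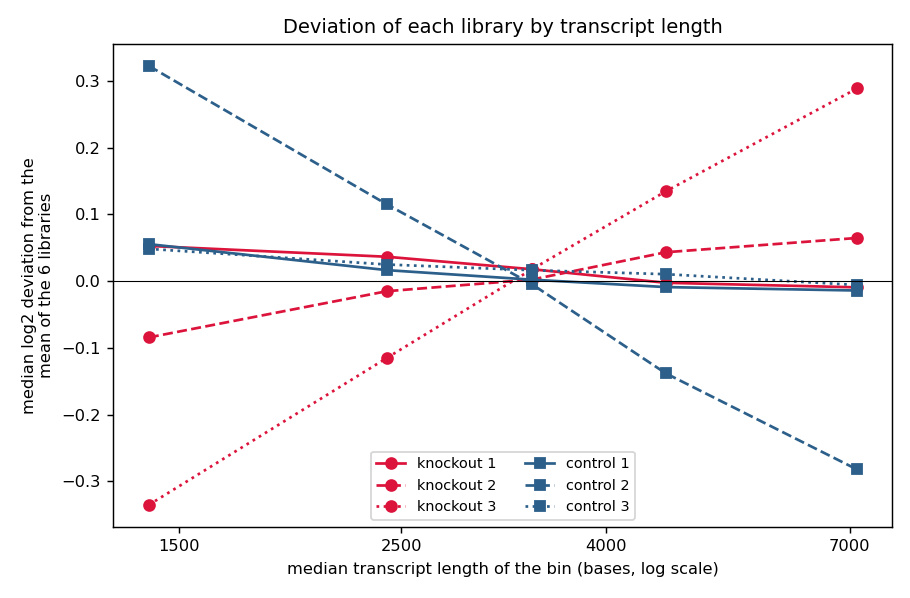
Median log2 deviation of each library from the mean of the 6, by bin of transcript length (5 bins of protein-coding genes at 10 CPM or more, log axis), with knockout libraries in red and controls in blue. Knockout library 3 climbs from -0.34 in the shortest to 0.29 in the longest bin and control library 2 runs the opposite way, from 0.32 to -0.28, while the other libraries stay within -0.08 and 0.06.

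With that trend removed the same 8 of the 14 antioxidant genes were nominally lower and the median was -0.51, against 2.85% of all genes, and 1, Mt2, nominally higher, against 3.41%. Slc7a11, whose transcript is long, then had a log2 fold change of -1.77, and Gsta4, whose transcript is short, -1.05. Without the 2 end libraries the median was -0.43 and the same 8 were nominally lower.

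The ribosomal protein genes, which have short transcripts, lay along the length trend. Of 36 cytosolic ribosomal protein genes, which encode the protein part of the ribosome, 18 were nominally lower and none higher, with a median log2 fold change of -0.39. Rpl37 had 441, 319.7 and 236 CPM in the knockout, against 447, 628 and 446 CPM in the controls, and Rps14 had 372, 279 and 225 CPM in the knockout, against 357, 545 and 414 CPM in the controls, where knockout library 1 lay within the control range. Ribosomal protein genes took 3.38, 2.81 and 2.21% of counts in the knockout and 3.31, 4.25 and 3.41% in the controls. With the length trend removed the median was -0.07, and without the end libraries -0.13 with none nominally lower. Single libraries set that count, with none nominally lower without control library 2, 2 without knockout library 3, 6 without knockout library 2 and 28 without knockout library 1. The 20 nuclear genes of the respiratory chain behaved alike, all with a negative fold change and 3 nominally lower, with a median of -0.36 and of -0.07 after the removal, when none was nominally lower. Cox6c, a subunit of cytochrome c oxidase, had 328, 285 and 187 CPM in the knockout, against 361, 468 and 364 CPM in the controls, and its log2 fold change was -0.58 before and -0.21 after.

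Genes of glucose use and of protein folding leaned lower. Among 22 glycolysis and hypoxia genes, 5 were nominally lower and none higher (median -0.24, -0.15 with the trend removed and 3 nominally lower). The count was 1 without knockout library 3, 2 without control library 2 and 3 without control library 3 or knockout library 2. Slc2a1, the glucose transporter GLUT1, had 123, 116 and 104 CPM in the knockout, against 155, 163 and 152 CPM in the controls, and Pkm, the pyruvate kinase of the last step, had 1742, 1751 and 1376 CPM in the knockout, against 2173, 2174 and 2098 CPM in the controls. Neither pair of groups overlapped. Of 13 cytosolic heat shock genes 4 were nominally lower (median -0.23, -0.15 with the trend removed). Without the 2 end libraries the median was -0.06 and 1 was nominally lower, and without control library 2 or knockout library 2 the count was 2. Hsp90aa1, an HSP90 chaperone, had 1139, 1229 and 971 CPM in the knockout, against 1340.2, 2019 and 1363 CPM in the controls, and Dnaja1, a co-chaperone of HSP70, had 251, 224 and 235 CPM in the knockout, against 268, 366 and 321 CPM in the controls. Dnaja1 had a log2 fold change of -0.59 with the length trend removed, beside -0.43 before.

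**Figure D3:**
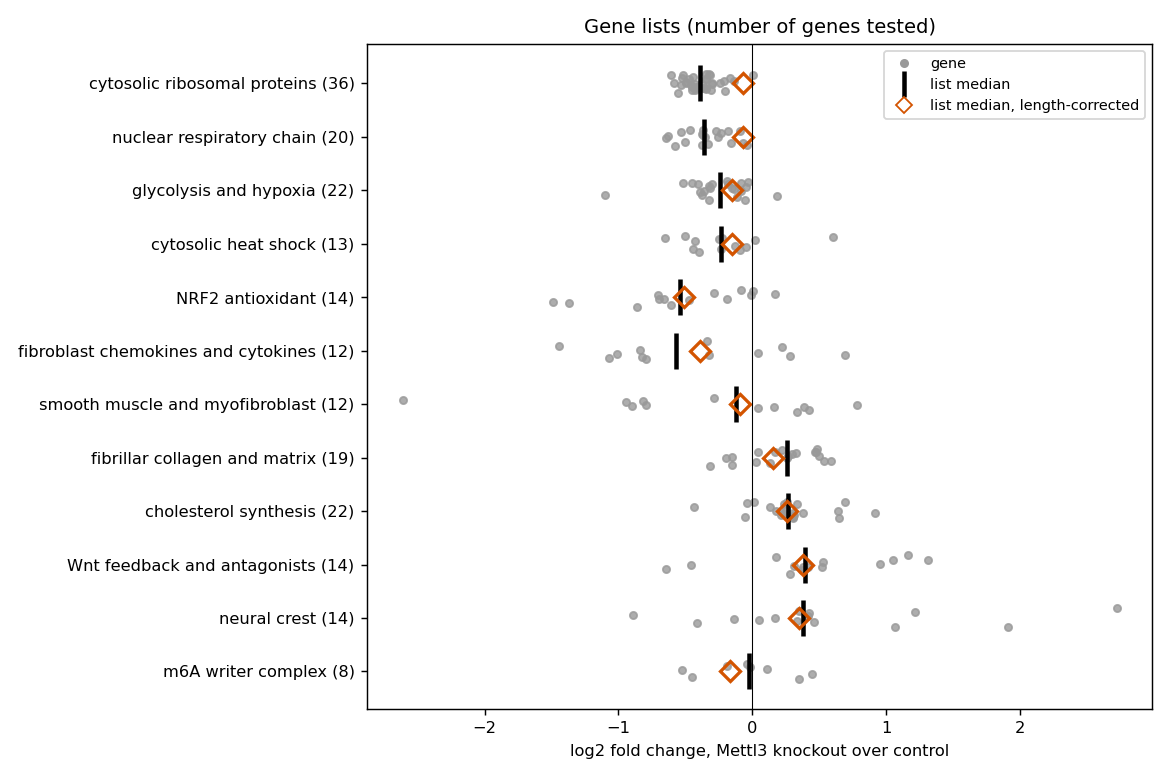
Log2 fold changes of the genes of 12 lists (grey points; number tested in brackets), knockout over control, with the list median as a black bar and the median after removal of each library's length trend as an open diamond. The medians of ribosomal protein and respiratory chain genes move from -0.39 and -0.36 to -0.07 and -0.07 under the removal, and that of the NRF2 genes from -0.54 to -0.51.

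Several genes of the extracellular matrix leaned higher. Of 19 collagen and matrix genes, 7 were nominally higher and none lower, with a median log2 fold change of 0.26, or 0.16 with the length trend removed. The 7 were also the ones that lay above all controls, against 6.78% of all genes tested, and none was called in edgeR. The absence of lower members depended on control library 2. Without it 5 were nominally higher and 3 lower (Col6a1, Col6a2 and Dcn, with a median of 0.14 over the list), and without both end libraries 8 were higher and 4, these with Col6a3, lower. Col1a1, the main chain of type I collagen, had 6410.3, 5961 and 6880.2 CPM in the knockout, against 4271, 3714 and 5303 CPM in the controls, a log2 fold change of 0.53 ± 0.144 and an adjusted p of 0.467 in edgeR and 0.0318 in DESeq2. Its partner chain Col1a2 had 3174, 3436 and 3813 CPM in the knockout, against 2346, 2078 and 3028 CPM in the controls. Fn1, fibronectin, and Thbs1, thrombospondin 1, differed by log2 0.59 ± 0.172 and 0.50 ± 0.149, with the lowest value of each in control library 2. Postn, periostin, a matrix protein of bone and tendon, had 995, 1085 and 1074 CPM in the knockout, against 569, 786 and 929 CPM in the controls. Col3a1, Col6a3 and Spp1 overlapped between groups, with log2 fold changes of 0.03, 0.04 and 0.13. The sum of the fibroblast markers given above was higher in every knockout library than in any control, narrowly so against control library 3. The median over that list was 0.12, with 3 of 13 nominally higher and none lower. It was 0.06 with the length trend removed and -0.03 without the 2 end libraries. Dcn is on both lists, so they are not separate measures. The part of fibroblasts in the matrix values was not tested. In bulk samples fewer cells of a type and less RNA per cell cannot be told apart.

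The contractile genes of smooth muscle and myofibroblasts were split. Of 12 tested, 4 were nominally lower and none higher, all 4 without overlap, and the median was -0.12, or -0.09 with the length trend removed. It ranged from -0.44 without control library 1 to -0.03 without knockout library 3. Acta2, smooth muscle actin, had 101, 91.3 and 53.6 CPM in the knockout, against 153, 149.8 and 131 CPM in the controls, and Tagln, transgelin, had 166, 90.1 and 62.4 CPM in the knockout, against 203, 181 and 167 CPM in the controls. Tpm2, a tropomyosin, had 129, 96.1 and 74.6 CPM in the knockout, against 156, 216 and 188 CPM in the controls, and Myl9, a myosin light chain, had 12.4, 7.19 and 5.46 CPM in the knockout, against 16.4, 15.3 and 16.5 CPM in the controls. In Acta2, Tpm2, Tagln and Myl9 knockout library 3 was the lowest of the 6 libraries. Their log2 fold changes of -0.82, -0.90, -0.79 and -0.94 were -0.71, -0.80, -0.64 and -0.70 with the length trend removed.

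Chemokines that draw monocytes were nominally lower. Of 12 chemokine and cytokine genes of fibroblasts, 3 were nominally lower and none higher (median -0.57, -0.39 with the length trend removed). Without knockout library 3 the median was -0.33 and without control library 3 -0.36. DESeq2 called 3 of them, all lower. Ccl7 had 55.4, 42 and 46.1 CPM in knockout libraries 1 to 3, against 89.2, 96.5 and 104 CPM in control libraries 1 to 3, a log2 fold change of -1.01 ± 0.184 and an adjusted p of 0.0944. Its relative Ccl2 had 79, 42.5 and 57.5 CPM in the knockout, against 109, 90.6 and 117 CPM in the controls. The next relative, Ccl8, had 70.4, 52.7 and 65.5 CPM in the knockout, against 85.5, 98 and 155 CPM in the controls. Their transcripts are short, and with the length trend removed the log2 fold changes of Ccl7, Ccl2 and Ccl8 were -0.64, -0.48 and -0.38. Blood and macrophage markers did not follow the groups, with a sum of 11.5 to 95.1 CPM in the knockout libraries, against 6.3 to 59.1 CPM in the controls, and Adgre1, which defines mouse macrophages, was at 0 in all 6 libraries.

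Inhibitors of the cell cycle leaned lower. Of 7 genes of the INK4 and KIP families, 2 were nominally lower and none higher (median -0.31). With the length trend removed the median was -0.19 and 1 was nominally lower. Without knockout library 3 the median was -0.51. Cdkn1c, the imprinted inhibitor p57, had 44.7, 33.9 and 35 CPM in knockout libraries 1 to 3, against 70.0, 70.8 and 104 CPM in control libraries 1 to 3. The highest knockout library was below the lowest control, and the log2 fold change was -1.11 ± 0.214 with an adjusted p of 0.149. Cdkn2a, which encodes p16 and ARF, had 131, 125 and 109 CPM in the knockout, against 174, 234 and 156 CPM in the controls, and its log2 fold change of -0.63 was -0.26 with the length trend removed. The 14 targets of p53 showed none nominally higher or lower, with a median of -0.03, and of 21 cell cycle and replication genes 2 were nominally higher.

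Genes of cholesterol synthesis and of Wnt feedback leaned higher, also apart from length. Of 22 genes of cholesterol synthesis, 19 had a positive fold change, 3 were nominally higher and none lower, and the median was 0.27, or 0.26 with the trend removed. The nominally higher numbered 6 with the trend removed, 1 without knockout library 2 and 5 without control library 3 or knockout library 3. Hsd17b7, a ketoreductase of the late pathway, had 50.3, 78.6 and 55.3 CPM in the knockout, against 36.8, 34.6 and 46.3 CPM in the controls, and Idi1, an isomerase of the early pathway, had 52.4, 112 and 61.4 CPM in the knockout, against 28.1, 53.1 and 58.1 CPM in the controls, with overlap. Of 14 Wnt feedback and antagonist genes 12 were positive and 3 nominally higher (median 0.40, 0.38 with the trend removed). Sfrp2, a secreted protein that binds Wnt ligands, had 64.9, 65.3 and 85.7 CPM in knockout libraries 1 to 3, against 14.9, 35.9 and 35.9 CPM in control libraries 1 to 3. Control library 1 was the lowest, no library overlapped, and the log2 fold change was 1.31 ± 0.283 with an adjusted p of 0.294. Wnt5a, a ligand of the noncanonical branch, had 175, 217 and 208 CPM in the knockout, against 148, 125 and 145 CPM in the controls, and Nkd2, a feedback inhibitor, had 119, 107 and 102 CPM in the knockout, against 73.9, 60.8 and 93.1 CPM in the controls.

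The 14 protein-coding genes with the smallest p among those higher without overlap had log2 fold changes of 0.73 to 2.28 and adjusted p of 0.0811 to 0.355, so none was called. They were chosen by these values, which stand as a description. Fbn2, fibrillin-2 of elastic microfibrils, had 48, 53 and 48 CPM in knockout libraries 1 to 3, against 21.3, 20.8 and 20.6 CPM in control libraries 1 to 3. Both groups were tight, and the log2 fold change was 1.25 ± 0.215. Myo7a, an unconventional myosin of sensory hair cells, had 76.4, 76.4 and 66.5 CPM in the knockout, against 27.8, 31.1 and 36.5 CPM in the controls. Cdh19, a cadherin of Schwann cell precursors, had 35.5, 44.1 and 39.6 CPM in the knockout, against 5.93, 3.71 and 14.9 CPM in the controls. Gpx3, a secreted glutathione peroxidase, had 161, 150.0 and 125 CPM in the knockout, against 83, 89 and 68.1 CPM in the controls, and it was called once the length trend was removed (log2 fold change 1.06, adjusted p 0.0112), 1 of 4 calls there (0.0253%).

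Several more of the 14 encode matrix or surface proteins. Agrn, the heparan sulfate proteoglycan agrin, had 99.1 to 128 CPM in the knockout libraries, against 42.1 to 75.6 CPM in the controls. Svep1, a large adhesion protein of the matrix, had 109 to 182 CPM in the knockout libraries, against 46.3 to 90.5 CPM in the controls, and P3h2, a prolyl hydroxylase of collagen, had 41.2 to 77.6 CPM in the knockout libraries, against 13.4 to 32.6 CPM in the controls. In Agrn, Svep1 and P3h2 control library 3 was the highest control. Col10a1, the collagen of hypertrophic cartilage, had 203 to 258 CPM in the knockout libraries, against 45.6 to 125 CPM in the controls, there with control library 3 as the lowest. The collagen receptor subunit Itga11, the potassium channel Kcnq3, the semaphorin receptor Plxna4, Morc4 and Etl4 had log2 fold changes of 0.97, 1.15, 0.73, 1.36 and 0.83.

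The 12 further genes that were lower by the same rule had log2 fold changes of -1.77 to -0.70. Besides Prl2c3, Ccl7, Cdkn1c, Tpm2, Hmox1 and Nqo1 they were Tchh, Rgs16, Cyb5a, Psmb7, Fam173b and S100a6. Tchh, trichohyalin of the hair follicle, had 10.4, 10.1 and 12.4 CPM in the knockout, against 31.9, 35.5 and 23 CPM in the controls. Rgs16, which shortens G protein signals, had 16.6, 5.88 and 14.3 CPM in the knockout, against 33.2, 33.8 and 34.9 CPM in the controls. Cyb5a, cytochrome b5, had 63.7, 60.3 and 47.2 CPM in the knockout, against 90.7, 101 and 113 CPM in the controls, and Psmb7, a catalytic subunit of the proteasome, had 68, 36.6 and 55.7 CPM in the knockout, against 88.7, 130.2 and 97.9 CPM in the controls. S100a6, a small calcium-binding protein, had 459, 322 and 278 CPM in the knockout, against 555, 724 and 534 CPM in the controls, and with the length trend removed its log2 fold change of -0.78 was -0.40. Of the 28 genes, the 2 calls included, 28 kept a p under 0.05 before adjustment with the trend removed, and DESeq2 called 24. The 28 were chosen by their p in the same 6 libraries, so neither count is a test of their stability.

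Genes of the neural crest and of peripheral glia followed a pattern of libraries rather than of groups alone. Of 14 neural crest genes, 3 were nominally higher and 1 lower, with a median of 0.38, or 0.35 with the length trend removed. The nominally lower gene is not among those described below, and none of the 14 lay below all controls. Of the 14, 11 had a positive fold change and 3 a negative one. Those described below all had a positive one, so they do not stand for the whole list. The 14 summed to 577 to 669 CPM in the knockout libraries, against 411 to 558 CPM in the controls. Ngfr, the p75 neurotrophin receptor of crest cells, had 137, 91.8 and 118 CPM in knockout libraries 1 to 3, against 10.8, 5.19 and 76 CPM in control libraries 1 to 3. Control library 3 lay near the knockout and far above the other controls. Foxd3, a transcription factor of early crest, had 3.21, 7.76 and 4.28 CPM in the knockout, against 0.23, 0 and 2.05 CPM in the controls. Sox10, which defines crest and glia, had 19.7, 7.7 and 16.8 CPM in the knockout, against 2.94, 0.0344 and 16.1 CPM in the controls, so that control library 3 fell inside the knockout range. Snai2 had 158, 214 and 159.7 CPM in the knockout, against 111, 119 and 156 CPM in the controls. Without knockout library 2 the list median was 0.18, with 1 nominally higher and none lower, against 3.04% and 2.44% of all genes. Without control library 3 the nominally higher numbered 5.

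Further glial genes, named after their values were seen, showed the same order. Erbb3, the neuregulin receptor of Schwann cells, had 11.8, 4.45 and 12.5 CPM in the knockout, against 0, 0 and 12.6 CPM in the controls. Apod, a lipid carrier of peripheral nerve, had 109, 39.4 and 71.3 CPM in the knockout, against 6.34, 0.688 and 62 CPM in the controls. Ptn, the growth factor pleiotrophin, had 114, 104 and 141 CPM in the knockout, against 31.2, 30.7 and 96.9 CPM in the controls, and the potassium channel Kcna1 had 4.53, 5.25 and 5.09 CPM in the knockout, against 0, 0 and 0.778 CPM in the controls. With all 6 libraries none of these was called in the edgeR fit. In other settings on the same 6, limma voom with quality weights called Ngfr (adjusted p 0.0197), the replicate block called Ngfr and Ptn (adjusted p 0.0356 for both), and edgeR without a low-count filter called Ngfr, Apod and Ptn. Without control library 3, edgeR called Ngfr (log2 fold change 3.86, adjusted p 3.85e-05), Cdh19 (3.05, 0.00115), Apod (4.42, 0.00913) and Ptn (1.95, 0.00115). Erbb3 and Kcna1 were called too, against controls at 0. Control library 3 was the highest control for each of these genes, and most were named with their values known. Leaving it out could only widen the difference, so these calls are a description and no test. In the 6 Mettl14 line libraries Ngfr ranged from 8.4 to 52.2 CPM and Sox10 from 0.23 to 6.59 CPM. Whether the share of crest-like cells differed between libraries was not tested.

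**Figure D4:**
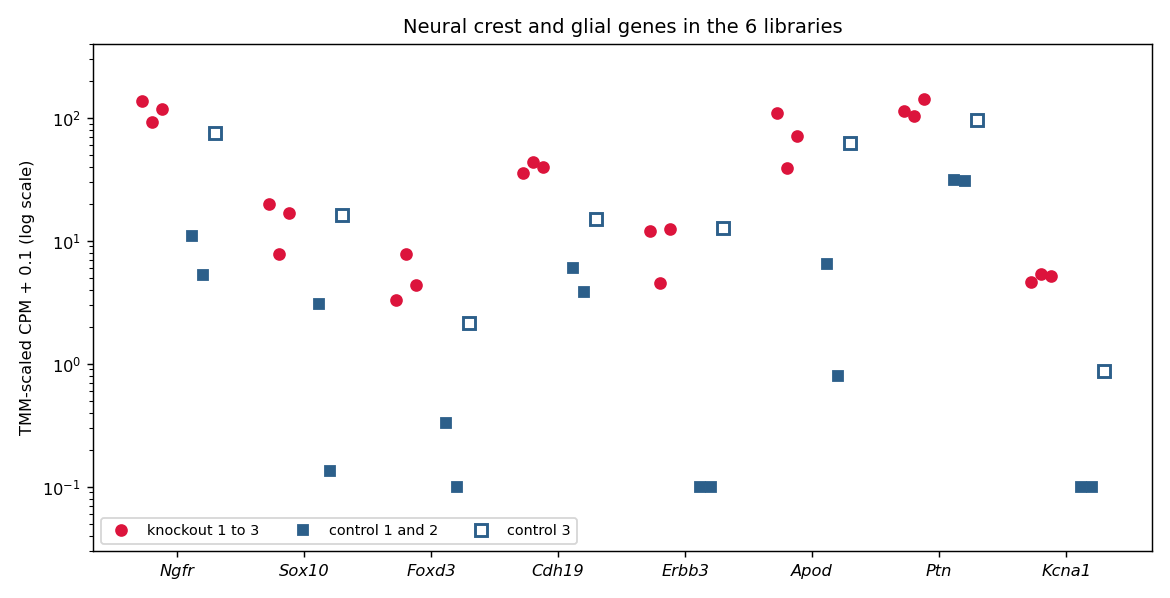
TMM-scaled CPM plus 0.1 (log axis) of 8 neural crest and glial genes, with knockout libraries as red circles, control libraries 1 and 2 as filled squares and control library 3 as an open square. Control library 3 sits near the knockout values for Sox10, Erbb3, Apod and Ptn, while control libraries 1 and 2 sit lower for all 8 genes.

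The Mettl14 line served as a second knockout of the same complex. Its knockout library 3 held only 1303697 counts, against 6978577 to 10285737 in the other 5 libraries. Its knockout against its control gave 0 calls among 13088 genes tested in edgeR, with 292 at a p under 0.05 before adjustment (2.23%), and DESeq2 called 3. Without that library 0 were called and 761 had a p under 0.05. The 2 genes called in the Mettl3 line were not called there, with log2 fold changes of -0.22 ± 0.348 for Prl2c2 and -0.37 ± 0.246 for Gsta4, or 0.09 and -0.23 without the shallow library. Of the 28 named genes, 15 had the same sign in both lines with it and 9 without it. Among 14 antioxidant genes the Mettl14 median was -0.15, with 1 nominally lower and none higher, and with Gclc at -0.61, Nqo1 at -0.48 and Hmox1 at -0.11. Without the shallow library the median was -0.12, with none nominally lower and 2 higher, where 3.11% of all genes were higher. Nqo1 was then at -0.28 and Hmox1 at -0.06. Cholesterol synthesis genes had a Mettl14 median of 0.53 with 9 of 22 nominally higher, against 1.4% of all genes tested in that line, beside 0.27 and 3 in the Mettl3 line, and the Mettl14 median was 0.53 without the shallow library. The median of the ribosomal protein genes was 0.40 in the Mettl14 line (0.67 without the shallow library), opposite in sign, and the shortest bin of genes had a median of 0.17. In the Mettl3 line these medians were -0.39 and -0.26, or -0.07 and -0.0077 with the length trend removed. No such trend was removed from the Mettl14 fold changes. The part of transcript length in the opposite signs and in the correlation below was not tested. Over 9184 genes at 10 CPM or more the Spearman correlation of the fold changes of the lines was -0.208 and, without the shallow library, -0.362, given as a description.

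The difference between the knockout effects was tested in 1 fit of the 12 libraries. It was called for 1 of 16126 genes (0.0062%), the complement component C3, present at low counts in the Mettl3 knockout and at 0 in its controls. Fbn2 came next, higher by 1.25 in the Mettl3 knockout and at -0.97 ± 0.411 in the Mettl14 knockout, a difference of 2.21 ± 0.429 with an adjusted p of 0.353. For Gsta4 and Prl2c2 the differences were -0.98 ± 0.308 and -1.38 ± 0.434, with adjusted p of 0.812 and 0.812. Without the shallow Mettl14 library the adjusted p was 0.224 for Fbn2, 0.353 for Gsta4 and 0.272 for Prl2c2. The genes were chosen on their Mettl3 values, which enter these differences.

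**Figure D5:**
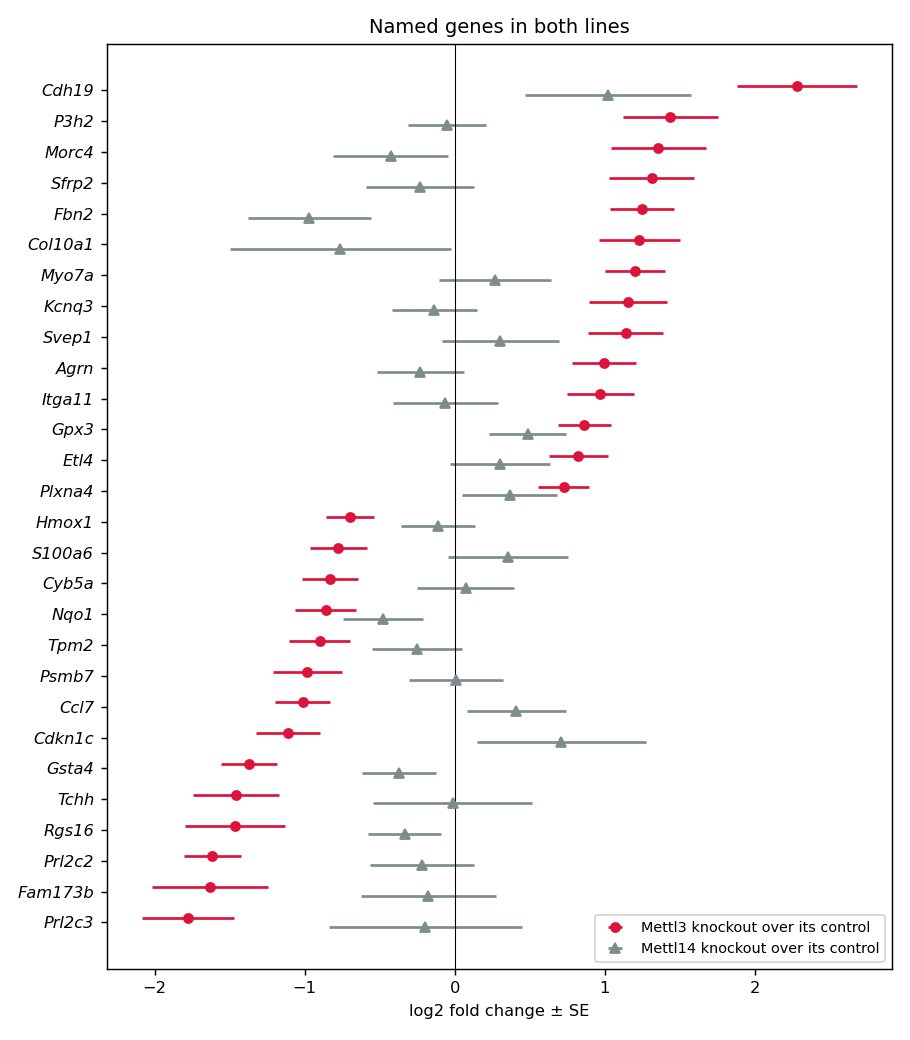
Log2 fold change ± SE of the 28 named genes, Mettl3 knockout over its control (red circles) and Mettl14 knockout over its control (grey triangles), sorted by the Mettl3 value that chose them. Fbn2 and Cdkn1c show opposite signs in the lines, Gpx3, Gsta4 and Nqo1 the same sign.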

How the data were processed

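Per the labels' protocols, RNA was extracted with Trizol, enriched for poly(A) with magnetic beads, and turned into libraries with a stranded SMARTer kit (v2). The submitters' processing notes name CASAVA, Trimmomatic 0.38, HISAT2 2.1.0, HTSeq and mm10. What the authors deposited is 1 file of raw, unnormalized counts per sample, with 54446 gene identifiers each. The sources used here do not name the annotation release or the strand option behind these counts. Of the identifiers, 54409 matched GENCODE M21 without their version, and names and coordinates come from it.

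The 6 libraries were fitted in R 4.3.3 with edgeR 4.0.16 (TMM factors, filterByExpr as the filter, a quasi-likelihood F test and Benjamini-Hochberg adjustment), and the difference of the lines on 12. Other settings were DESeq2 1.42.0, limma 3.58.1 voom with quality weights, RLE size factors, no filter, all libraries, a log2 change of at least 1, a replicate block and leaving out each library. The length trend was removed with a lowess offset per library (span 0.3). The comparison, the 45 gene lists and the rules were chosen with earlier results of these data known. Genes named are Mettl3, the m6A genes, all calls, up to 14 higher and 14 lower protein-coding genes with the smallest p under 0.05, at least 10 CPM and no overlap (called genes counted within the 14), and up to 4 members per list described, with further members of the NRF2 and matrix lists. Antisense and overlapping genes could not be separated. The fits were tested on simulated data. Floors are 3 counts per library and cover counting error only. Python 3.11.15 with matplotlib 3.10.9 drew the figures.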

Additional observations from a re-analysis of the deposited data

Results flagged for a closer look

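The effect of the knockout on C3, the central complement component, differed between the lines in the test of the difference itself, with a log2 difference of 7.96 ± 0.869 (SE) and an adjusted p of 0.000408 in edgeR. C3 had 47, 40 and 28 counts in Mettl3 knockout libraries 1 to 3, or 1.44, 2.28 and 0.966 CPM by library total, against 0 counts in each Mettl3 control. Against a floor of 3 counts per control library the mean was at least 13.6-fold higher in the Mettl3 knockout, a bound that covers counting error only. In the Mettl14 line C3 had 152, 266 and 234 CPM in the knockout libraries and 272, 359 and 221 CPM in the controls, so its level there was far above that of either Mettl3 group. The Mettl3 knockout libraries with GSK-J4, outside this comparison, had 52, 0 and 0 counts. The fitted difference of a gene with controls at 0 depends on the prior count and is no bound, and C3 was not called in the Mettl3 comparison alone (adjusted p 0.533).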

How the results depend on the processing

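The count of 2 called genes in the Mettl3 comparison moved with most settings. DESeq2 called 54 genes (25 higher, 29 lower), limma voom with quality weights 13, edgeR without a low-count filter 80, and all 9 libraries of the line together 0. The replicate block gave 13. The numbers are not shown to pair the libraries, since same-numbered libraries had correlations of 0.000419, 0.0811 and 0.0296 and not every library correlated best with its own number. Leaving out each library gave 0 to 15 calls. After the data were seen, removal of the length trend was added, with 4 calls (Prl2c2, Gsta4, Gpx3 and Mgp), and omission of control library 2 with knockout library 3, with 0 calls. Prl2c2 and Gsta4 were both among the calls of every setting that called more than 1 gene. The Mettl14 count was 3 with DESeq2, 20 without a filter and 0 to 12 with a library left out. The count for the difference was 3 with DESeq2, 0 with limma voom, 46 without a filter, 0 with all 18 libraries and 1 to 10 with a library left out. The cause was not tested. The Mettl3 gene kept its sign throughout, from -0.97 to -0.14 with a library left out. None of the 28 genes named by size and p changed sign in the settings run. They were chosen for groups without overlap, so leaving out a library could hardly turn their sign, and this is no test of stability. The m6A genes were not chosen so, and 9 of the 22 tested changed sign in at least 1 setting. Each of those 9 had a log2 fold change of at most 0.209 in size. With 3 libraries a group and a biological coefficient of variation of 0.558, small changes of low genes could not be detected at this depth, where 3 counts equal 0.0922 to 0.171 CPM.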

Other observations

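Imprinted genes were spread in both directions. Of 18, 4 were nominally higher and 1, Cdkn1c, lower, against 3.9% and 3.61% of all genes tested. Without knockout library 3 the higher ones numbered 1 and without control library 2 2. Peg3, a paternally expressed zinc finger gene, had 641, 648 and 864 CPM in the knockout, against 579, 421 and 583 CPM in the controls, and Peg10, which derives from a retrotransposon, had 18.6, 34.3 and 17.4 CPM in the knockout, against 13.8, 8.53 and 17.1 CPM in the controls. Rian, a noncoding RNA of the Dlk1 cluster, had 119.7, 128 and 165 CPM in the knockout, against 106, 108 and 99.7 CPM in the controls. With the length trend removed 1 of the 18 was nominally higher, and the median log2 fold change of 0.23 was 0.07.

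Some cartilage and bone genes varied widely between libraries. Of 9 cartilage genes tested 2 were nominally higher, and of 10 osteoblast genes 3, with none lower in either list. Over all genes tested 3.9% were nominally higher and 3.61% lower. The cartilage count was 1 without knockout library 2 and 5 without control library 3. The 1 was Sox6, so neither of the 2 was kept without knockout library 2. Col2a1, the collagen of cartilage, had 120.4, 392 and 172 CPM in the knockout, against 67.1, 3.92 and 157 CPM in the controls, with control library 2 far below the rest. Col11a1, which joins its fibrils, had 41.3, 76.9 and 47.5 CPM in the knockout, against 35.7, 20.8 and 38.5 CPM in the controls, without overlap. Runx2, the transcription factor of osteoblasts, had 64.1, 66.7 and 64.9 CPM in the knockout, against 52.5, 31.5 and 48.2 CPM in the controls. Mmp9, a gelatinase, had 47.7, 8.5 and 11.8 CPM in the knockout, against 3.54, 1.89 and 7.22 CPM in the controls, with knockout library 1 above the rest (adjusted p 0.415). Igfbp5, a secreted binding protein of insulin-like growth factors, had 1299, 1418 and 1799 CPM in the knockout, against 969.8, 586 and 1125 CPM in the controls (log2 fold change 0.75 ± 0.204, adjusted p 0.467). Tgfbi, a matrix protein induced by TGF-beta, had 197, 164 and 119.8 CPM in the knockout, against 99.6, 96.8 and 76.6 CPM in the controls (log2 fold change 0.82 ± 0.196, adjusted p 0.357). Sox2, named here after its values were seen, was low in both groups, with 3.92, 13.9 and 3.7 CPM in the knockout, against 0.551, 0 and 1.7 CPM in the controls.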
